A study of Danio rerio with 12 samples.

Results

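The genes described here are 38 zebrafish genes of the circadian clock and its light response, taken from a list of clock and light-responsive gene names and matched to the Ensembl identifiers of a count table of 30258 genes. All 38 names found an identifier, 27 by name or identifier and 11 after the closing paralogue letter was dropped. By role, 10 are core activators, 16 core repressors, 3 light-related cryptochromes or photolyases, 7 output transcription factors of the PAR bZIP or Nfil3 families and 2 clock kinases. Of the 38 genes, 32 had enough counts to be tested, and 6 did not.

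Expression was measured in tails of wild-type zebrafish larvae in 4 groups of 3 libraries, each made from 100 tails. The groups were cut tails with SB431542, uncut tails with SB431542, cut tails with dimethyl sulfoxide (DMSO) and uncut tails with DMSO. By their labels, both SB431542 groups hold replicates 2, 3 and 4. Cut DMSO tails hold replicates 1, 3 and 4 and uncut DMSO tails 1, 2 and 4, so replicate 1 occurs under DMSO only. Values of single libraries are printed in this order. SB431542 inhibits the type I receptors of TGF-β, activin and nodal ligands, and was present at 50 µM between 72 and 90 h post fertilization. The DMSO groups had the vehicle, DMSO, at 0.1%. For the SB431542 groups the labels give no DMSO percentage. In cut larvae about 200 µm of tail was removed at 72 h and the next 200 µm was taken for RNA 18 h later. In uncut larvae the corresponding tissue was taken at 90 h. Neither the light cycle nor the clock time of collection is given in the sources used here, so the phase of the cycle at collection is not known. Whether all 12 libraries share 1 phase and the same light exposure is not given either, and was not tested.

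In zebrafish, most tissues and even cultured cells hold their own clocks, and these are set directly by light. Heterodimers of Clock and Bmal proteins activate genes that carry E-box elements, among them the period and cryptochrome genes, whose proteins then repress Clock and Bmal. A second loop joins the Rev-erb receptors (NR1D genes), which repress through ROR elements, to the ROR receptors, which activate through them. Light induces per2, some cryptochromes and DNA photolyases, in part through D-box elements that are bound by PAR bZIP factors such as Tef and opposed by Nfil3 factors.

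Total counts ran between 7368986 and 12914981 per library. Levels are CPM, with library sizes scaled by TMM factors, which were 0.973 to 1.23 in cut and 0.805 to 0.965 in uncut libraries. Small differences between cut and uncut tails, and whether their libraries overlap, therefore rest in part on this scaling. The libraries count the 3' ends of transcripts, so a level does not scale with transcript length. A gene was called where its Benjamini-Hochberg adjusted p in edgeR's quasi-likelihood test, fitted over 13978 genes, was under 0.05. Each log2 fold change has its SE after the ± sign. Separate clutches are not named in the labels, so a p-value covers variation among pools of tails, some of which can be technical. Uncut SB431542 replicate 4 stood apart, with a median correlation to the other libraries of 0.905 against 0.934 to 0.944 for the other 11. Genes that define retinal and pineal photoreceptors were near absent: none of 16 could be tested, 5 were at 0 counts in every library, and their summed level was 1.35 to 3.70 CPM.

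Symbols are printed as the symbol table gives them. CLOCK, BMAL1, PER1 and CRY1 each stand for 2 identifiers whose paralogue letter the table does not give, so these genes carry their identifier. Mean levels over the 12 libraries spanned 0.854 CPM for CRY1 ENSDARG00000011583 to 113.9 CPM for cry3a among tested genes. The next highest levels after cry3a were those of hlfa at 65.3 CPM, nr1d2a at 61.8 CPM, csnk1da at 57.1 CPM and CRY1 ENSDARG00000045768 at 55.3 CPM. The 4 Clock and Bmal1 genes were low, at 3.73 CPM for CLOCK ENSDARG00000003631, 1.36 CPM for CLOCK ENSDARG00000011703, 2.21 CPM for BMAL1 ENSDARG00000006791 and 2.37 CPM for BMAL1 ENSDARG00000035732. The 6 untested genes were PER1 ENSDARG00000056885, tefb, nr1d4b, rorca, npas2 and nr1d4a, whose counts summed over 12 libraries were 81, 36, 16, 5, 5 and 1.

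The first question was whether SB431542 altered the clock genes. With SB431542 set against DMSO over cut and uncut tails together, an average of both differences that was added after the data had been seen, 10 of the 32 tested genes were called higher and 0 lower. Among all genes tested, 4.84% were called higher and 2.33% lower in that comparison, or 7.18% in either direction. The clock genes were chosen with earlier results of these data known. The median log2 fold change was 0.34 over the 32 clock genes and 0.004 over all genes tested, and 25 of the 32 clock genes had a positive value. The 10 genes were the PAR bZIP factor tefa, the photolyase-family genes cry-dash and cry5, the repressors PER2, cry3a and BHLHE40, the activators BMAL1 ENSDARG00000006791 and rorab, and the kinases CSNK1D and csnk1da. In 5 of them (tefa, cry-dash, PER2, cry3a and rorab) all 6 SB431542 libraries lay above all 6 DMSO libraries, as they did in 1.56% of all genes. Beside the 0 called lower, the count at an unadjusted p under 0.05 was 13 in either direction, where 24.0% of all genes were under it, and DESeq2 and limma-voom also called 0 lower.

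**Figure D1:**
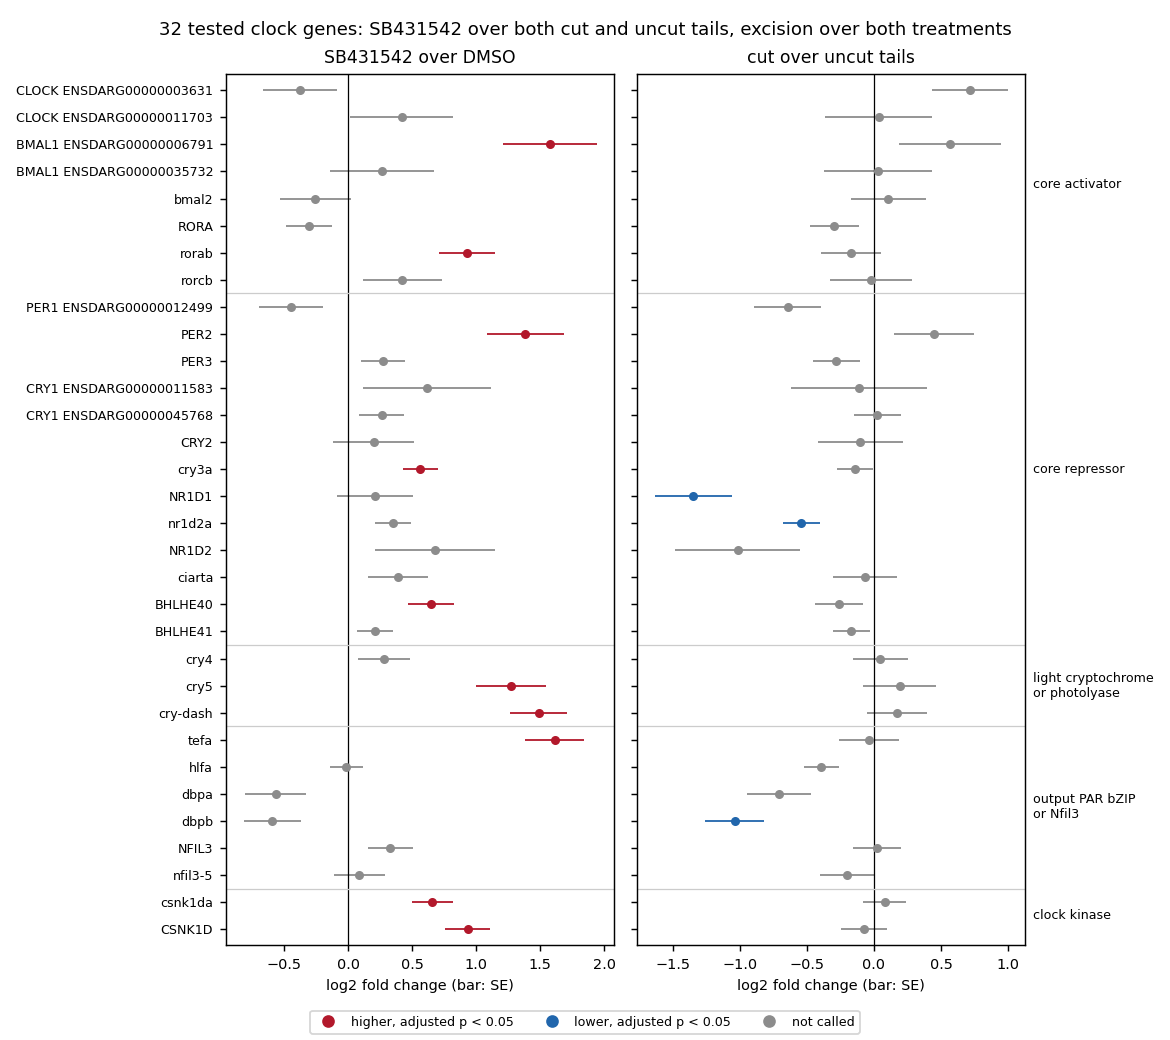
Log2 fold change (x axis, points, bars are SE) of the 32 tested clock genes (y axis, grouped by role), with SB431542 over DMSO on the left and cut over uncut tails on the right. The 10 genes called higher with SB431542 lie in all 5 role groups, and the 3 genes called lower in cut tails are NR1D1, nr1d2a and dbpb.

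tefa (ENSDARG00000039117), a PAR bZIP factor known to take part in light-induced transcription in zebrafish cells, had the largest log2 fold change. It stood at 72.0, 93.8 and 49.3 CPM in cut SB431542 tails, against 27.1, 22.7 and 22.2 CPM in cut DMSO tails. It stood at 118, 52.9 and 54.6 CPM in uncut SB431542 tails, against 32.9, 20.8 and 19.0 CPM in uncut DMSO tails. Each of the 6 SB431542 libraries was above each of the 6 DMSO libraries. Its log2 fold change was 1.61 ± 0.23, a 3.06-fold higher level, with an adjusted p of 0.00339 by edgeR. The separate values were nearly alike, at 1.58 ± 0.32 in cut tails (adjusted p 0.0590) and 1.65 ± 0.33 in uncut tails (adjusted p 0.0700), neither of them called. Its relative tefb was too low to test.

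cry-dash, a member of the cryptochrome and photolyase family that repairs ultraviolet damage in single-stranded DNA, stood at 31.4, 35.9 and 20.0 CPM in cut SB431542 tails, against 13.9, 13.0 and 11.5 CPM in cut DMSO tails. In uncut tails it stood at 50.5, 17.9 and 27.0 CPM with SB431542, against 8.36, 8.98 and 10.1 CPM with DMSO. No SB431542 library overlapped a DMSO library. The log2 fold change was 1.49 ± 0.22, or 2.81-fold, with an adjusted p of 0.00302.

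cry5, which encodes a (6-4) photolyase in zebrafish, stood at 31.6, 31.4 and 18.9 CPM in cut SB431542 tails, against 11.0, 11.3 and 12.1 CPM in cut DMSO tails. In uncut tails it stood at 42.2, 20.4 and 10.5 CPM with SB431542, against 11.1, 10.1 and 8.56 CPM with DMSO. The groups overlapped through 1 SB431542 library, uncut replicate 4, which lay inside the DMSO range. The log2 fold change was 1.27 ± 0.27, or 2.42-fold, with an adjusted p of 0.0163. Counts of cry5 were fractional in all 12 libraries, so reads may be shared with another gene. The third gene of this role, cry4, a cryptochrome, was not called, with a log2 fold change of 0.28 ± 0.21.

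PER2, a period repressor whose transcription is induced by light in zebrafish, stood at 22.0, 28.0 and 19.6 CPM in cut SB431542 tails, against 11.8, 6.74 and 11.1 CPM in cut DMSO tails. In uncut tails it stood at 29.8, 13.5 and 13.6 CPM with SB431542, against 11.3, 6.84 and 2.31 CPM with DMSO. Every SB431542 library was above every DMSO library, and uncut DMSO replicate 4 was the lowest of the 12. The log2 fold change was 1.38 ± 0.30, or 2.61-fold, with an adjusted p of 0.0176. The other tested period genes were not called: PER3 had a log2 fold change of 0.27 ± 0.17 and PER1 ENSDARG00000012499 one of -0.45 ± 0.25.

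**Figure D2:**
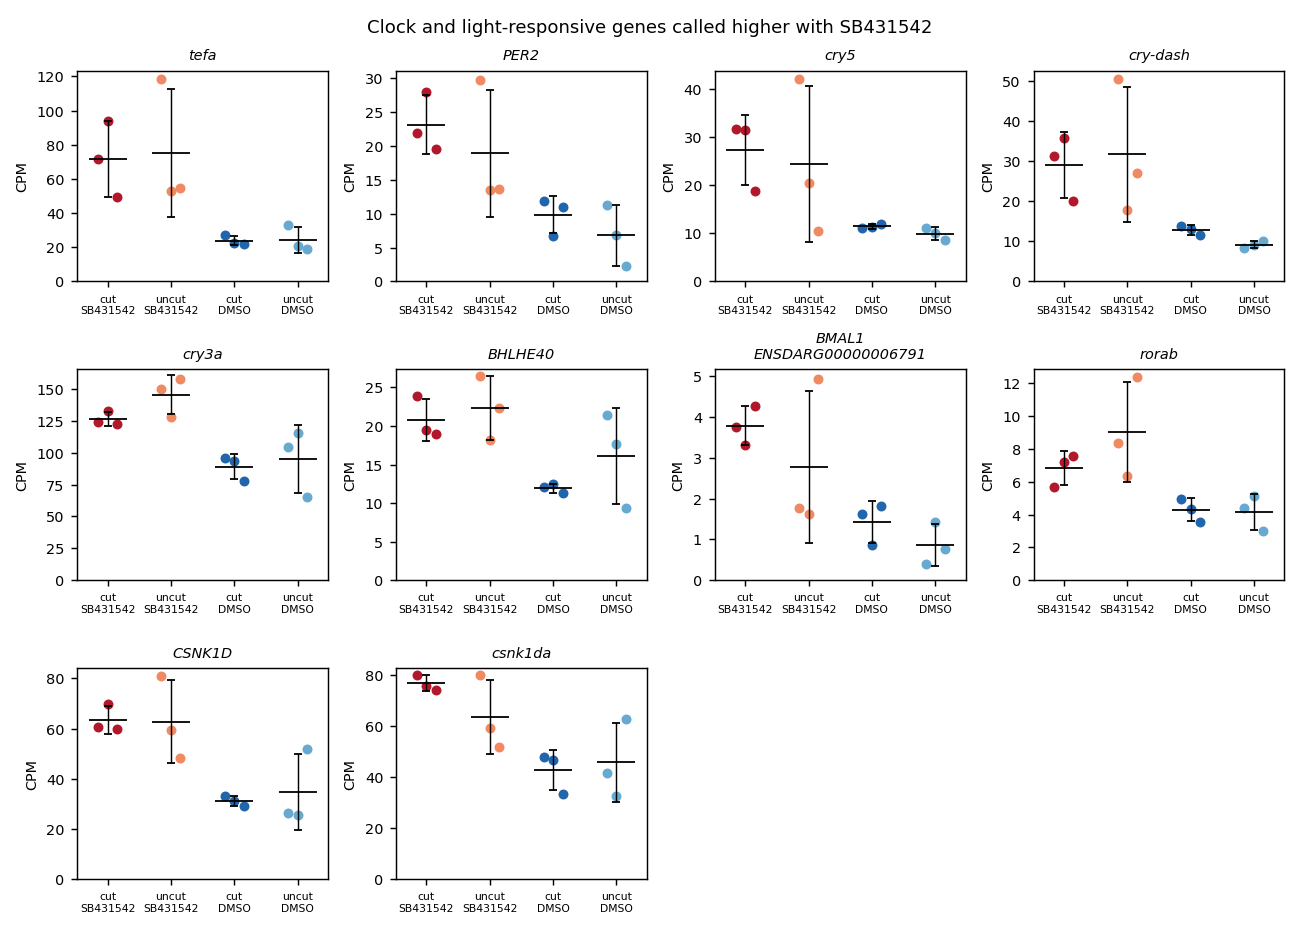
Levels in CPM (y axes, linear) of the 10 genes called higher with SB431542, by group (x axes); points are libraries, horizontal lines group means and bars SD (n = 3). For tefa, cry-dash, PER2, cry3a and rorab all SB431542 libraries lie above all DMSO libraries of cut and uncut tails.

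Among the other repressors, cry3a, a cryptochrome and the most abundant clock gene of the tails, stood at 124, 133 and 123 CPM in cut SB431542 tails, against 95.8, 93.2 and 78.1 CPM in cut DMSO tails. In uncut tails it stood at 150, 128 and 158 CPM with SB431542, against 105, 115 and 64.9 CPM with DMSO. The groups did not overlap, although the fold was small, at 1.48-fold (log2 0.56 ± 0.14, adjusted p 0.0211). BHLHE40, an E-box repressor, stood at 23.9, 19.5 and 19.0 CPM in cut SB431542 tails, against 12.1, 12.4 and 11.3 CPM in cut DMSO tails. In uncut tails BHLHE40 stood at 26.5, 18.2 and 22.3 CPM with SB431542, against 21.5, 17.7 and 9.33 CPM with DMSO. Its libraries overlapped in uncut tails only, and its log2 fold change was 0.65 ± 0.18 (1.57-fold, adjusted p 0.0364).

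Of the 8 tested activators, 2 were called. rorab, a ROR receptor, stood at 5.68, 7.22 and 7.60 CPM in cut SB431542 tails, against 4.94, 4.37 and 3.56 CPM in cut DMSO tails. In uncut tails it stood at 8.36, 6.36 and 12.4 CPM with SB431542, against 4.38, 5.13 and 2.98 CPM with DMSO. No libraries overlapped, and the log2 fold change was 0.93 ± 0.22 (1.90-fold, adjusted p 0.0201). BMAL1 ENSDARG00000006791 stood at 3.74, 3.32 and 4.27 CPM in cut SB431542 tails, against 1.62, 0.855 and 1.83 CPM in cut DMSO tails. In uncut tails it stood at 1.77, 1.63 and 4.93 CPM with SB431542, against 0.398, 1.43 and 0.769 CPM with DMSO. These are 3 to 49 counts a library, and within each tail type the SB431542 libraries lay above the DMSO libraries. Its log2 fold change was 1.58 ± 0.36 (2.98-fold, adjusted p 0.0174), while the other identifier, BMAL1 ENSDARG00000035732, had 0.27 ± 0.41 and was not called. RORA, the activator of highest level, stood at 9.66, 9.59 and 5.62 CPM in cut SB431542 tails, 9.89, 12.3 and 9.76 CPM in uncut SB431542 tails, 11.4, 9.78 and 10.6 CPM in cut DMSO tails and 10.6, 16.3 and 11.2 CPM in uncut DMSO tails. Its groups overlapped in uncut tails, and its log2 fold change was -0.30 ± 0.18 (adjusted p 0.318).

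Both casein kinase 1 delta genes, whose products phosphorylate period proteins, were called. CSNK1D stood at 60.6, 70.0 and 60.0 CPM in cut SB431542 tails, against 33.3, 31.0 and 29.2 CPM in cut DMSO tails. In uncut tails CSNK1D stood at 81.0, 59.3 and 48.2 CPM with SB431542, against 26.4, 25.7 and 52.0 CPM with DMSO. Only uncut DMSO replicate 4 reached into the SB431542 range, and the log2 fold change was 0.93 ± 0.17 (1.91-fold, adjusted p 0.00695). Its paralogue csnk1da stood at 80.1, 75.7 and 74.1 CPM in cut SB431542 tails, against 47.7, 46.7 and 33.5 CPM in cut DMSO tails. In uncut tails csnk1da stood at 79.7, 59.1 and 51.7 CPM with SB431542, against 41.5, 32.7 and 62.8 CPM with DMSO. The csnk1da libraries overlapped through the same uncut DMSO replicate, and the log2 fold change was 0.65 ± 0.16 (1.58-fold, adjusted p 0.0223).

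The other tested PAR bZIP and Nfil3 genes were not called with SB431542. dbpb and dbpa had log2 fold changes of -0.60 ± 0.22 (adjusted p 0.107) and -0.56 ± 0.24 (adjusted p 0.153), opposite in sign to tefa. hlfa had -0.01 ± 0.13, NFIL3 had 0.33 ± 0.18 and nfil3-5 had 0.09 ± 0.20.

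Within cut tails alone, edgeR called 0 of the 32 clock genes with SB431542 and 0.286% of all genes. At an unadjusted p under 0.05 there were 12 clock genes and 15.3% of all genes. DESeq2 called 5 clock genes and limma-voom 0, and the share of 0.286% is that of edgeR, not of these tools. Over all genes, the alternative settings called 9 to 537 in place of 40. In 12 clock genes all SB431542 libraries were above all DMSO libraries, against 12.6% of all genes, and in 2 they were all below, against 11.5% of all genes. Within uncut tails 1 clock gene was called, cry-dash, with a log2 fold change of 1.80 ± 0.33 and an adjusted p of 0.0498, where 0.0644% of all genes were called higher and 0.0143% lower. In 6 clock genes the uncut SB431542 libraries were all above the uncut DMSO libraries, against 9.46% of all genes. In 1, CLOCK ENSDARG00000003631, they were all below, and the share of all genes below is not given here. It stood at 2.94, 1.63 and 0.805 CPM with SB431542 against 5.84, 3.56 and 3.17 CPM with DMSO. Its log2 fold change of -1.23 ± 0.45 was not called (adjusted p 0.185). The 6 genes that lay above were tefa, cry-dash, PER2, cry3a, rorab and BMAL1 ENSDARG00000006791, and all were also above without overlap in cut tails, which share no library with the uncut comparison. Such a separation in both tail types was found in 3.38% of all genes. Whether same-numbered libraries of cut and uncut tails belong together is not settled, so the separations in cut and uncut tails may not be independent. The cry-dash call in uncut tails was lost in 11 of the 12 fits that left out a library, with adjusted p values of 0.0549 to 0.286 among them, and was kept only without uncut SB431542 replicate 3, at an adjusted p of 0.00262.

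For the averaged comparison, tefa, cry-dash and CSNK1D were called in all 12 fits that left out 1 library, with highest adjusted p values of 0.0185, 0.016 and 0.0268. PER2 was not called without cut SB431542 replicate 3, cut DMSO replicate 4 or uncut DMSO replicate 2 (adjusted p 0.0510 to 0.0543). cry3a (0.0555 to 0.0639) and rorab (0.0545 to 0.0643) lost the call without cut SB431542 replicate 3, cut DMSO replicate 4 or uncut DMSO replicate 4. cry5 lost it without cut or uncut DMSO replicate 4 (adjusted p 0.0513 to 0.0590), and BMAL1 ENSDARG00000006791 without uncut SB431542 or uncut DMSO replicate 4 (0.0541 to 0.0548). csnk1da lost it without cut SB431542 replicate 3, uncut SB431542 replicate 2, cut DMSO replicate 4 or uncut DMSO replicates 1 or 2 (0.0523 to 0.0686). BHLHE40 kept it in 3 of the 12 fits only, those without uncut SB431542 replicates 3 or 4 or uncut DMSO replicate 1, and otherwise had adjusted p values of 0.0521 to 0.0908. Without uncut SB431542 replicate 4, the library that stood apart, 9 of the 10 genes stayed called, with log2 fold changes of 1.71 for tefa, 1.55 for cry-dash, 1.49 for PER2 and 1.46 for cry5, and dbpb was then called lower at -0.76 (adjusted p 0.0347).

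The SB431542 libraries also varied among themselves. Uncut SB431542 replicate 2 was the highest of the 12 libraries for tefa, cry-dash, cry5 and PER2, with 118, 50.5, 42.2 and 29.8 CPM. Uncut DMSO replicate 4 was the lowest of the 12 for tefa, PER2, cry5, cry3a, BHLHE40 and rorab. These levels were 18.95, 2.31, 8.56, 64.9, 9.33 and 2.98 CPM. For cry-dash and BMAL1 ENSDARG00000006791 the lowest library was uncut DMSO replicate 1. For CSNK1D and csnk1da, uncut DMSO replicate 4 was instead the highest DMSO library. The coefficient of variation within uncut SB431542 tails was 49.6% for tefa, 53.0% for cry-dash, 66.6% for cry5 and 49.6% for PER2. In uncut DMSO tails it was 31.3%, 9.65%, 13.1% and 65.85% for the same genes. In cut tails it was 31.1%, 28.2%, 26.8% and 18.7% with SB431542, against 11.2%, 9.6%, 4.64% and 27.8% with DMSO. PER2 thus varied more with DMSO than with SB431542 in both tail types. Of the genes not called with SB431542, BHLHE41, an E-box repressor, varied by 1.43% in uncut SB431542 tails and NR1D2, a Rev-erb gene, by 113.3%. With 3 libraries and 92 to 149 counts a library, the BHLHE41 value does not show a stable gene.

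**Figure D3:**
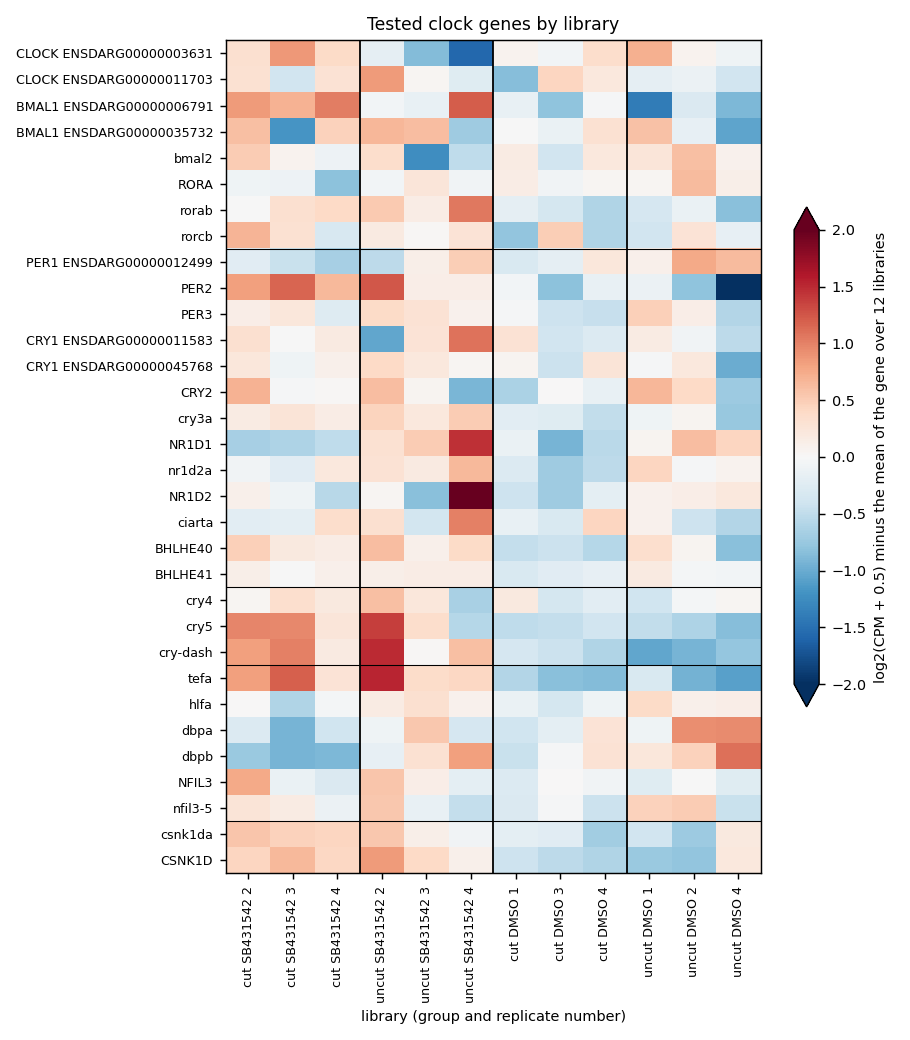
Deviation of log2(CPM + 0.5) from each gene's mean over the 12 libraries (colour, cut at -2 and 2) for the 32 tested clock genes (rows, by role) in each library (columns, by group). Rows of tefa, cry-dash, cry5 and PER2 are red in most SB431542 libraries, and the NR1D1, nr1d2a and dbpb rows are mostly bluer in cut than in uncut tails.

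Of the lists of related genes, that of light-induced and DNA repair genes had 19 tested members, of which 3 were called higher and 1 lower with SB431542 over both tail types. Over all genes tested, 4.84% were called higher and 2.33% lower. This list and the other related lists were chosen with earlier results of these data known, so their counts are not independent of those results. The median log2 fold change of the list was 0.19, against 0.004 over all genes. lonrf1, a LON peptidase and ring finger gene, stood at 97.2, 92.0 and 50.4 CPM in cut SB431542 tails, against 16.1, 18.1 and 16.5 CPM in cut DMSO tails. In uncut tails lonrf1 stood at 125, 33.7 and 44.8 CPM with SB431542, against 22.3, 11.0 and 8.46 CPM with DMSO. Its 6 SB431542 libraries were above its 6 DMSO libraries, with a log2 fold change of 2.28 ± 0.37 (4.84-fold, adjusted p 0.00836), larger than that of tefa or of any other clock gene called.

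DDB2, which recognizes ultraviolet damage for excision repair, stood at 56.6, 65.0 and 47.3 CPM in cut SB431542 tails, against 30.9, 23.2 and 26.5 CPM in cut DMSO tails. In uncut tails DDB2 stood at 76.5, 41.2 and 35.4 CPM with SB431542, against 27.1, 26.1 and 13.5 CPM with DMSO. No libraries overlapped, and the log2 fold change was 1.14 ± 0.20 (adjusted p 0.00695). cpdp, the photolyase of cyclobutane pyrimidine dimers, was higher by 0.69 ± 0.18 (adjusted p 0.0258), also without overlap. DDB1, the partner of DDB2, was lower by a log2 fold change of -1.08 ± 0.30 (adjusted p 0.0386), also without overlap. Its level was no more than 5.39 CPM in any library. For these list members too, uncut SB431542 replicate 2 held the highest level of lonrf1 and DDB2.

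Of 19 tested genes of clock protein turnover and modification, 1 was called higher with SB431542 over both tail types, CSNK2B, a casein kinase 2 subunit, at a log2 fold change of 0.62 ± 0.15 (adjusted p 0.0207). csnk2a1, another casein kinase 2 subunit, at 0.42 ± 0.14 (adjusted p 0.0733) and CSNK1A1, casein kinase 1 alpha, at 0.38 ± 0.14 (adjusted p 0.106) were not called. Of 21 tested clock-controlled outputs, 2 were called, both higher, with a median log2 fold change of 0.35 over the list: cry3b, the paralogue of cry3a, at 0.77 ± 0.20 (adjusted p 0.0305), and PDK2 ENSDARG00000020876, a pyruvate dehydrogenase kinase, at 0.68 ± 0.20 (adjusted p 0.0464). These counts are 5.26% of the turnover genes and 9.52% of the outputs, against 7.18% of all genes called in either direction. Of 3 tested non-visual opsins edgeR called 0, although all 3 had an unadjusted p under 0.05, where 24.0% of all genes were under it. OPN4 ENSDARG00000007553, a melanopsin, had a log2 fold change of 0.89 ± 0.32 (adjusted p 0.0892), against -0.57 ± 0.22 for opn4xb (adjusted p 0.112) and -0.60 ± 0.25 for rgrb (adjusted p 0.152).

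Markers of other cell types were compared beside these results. Summed skeletal muscle markers were 87197 to 101551 CPM in cut SB431542 tails against 73934 to 103720 CPM in cut DMSO tails, and 133831 to 149857 CPM in uncut SB431542 tails against 142848 to 158559 CPM in uncut DMSO tails. Summed macrophage, neutrophil, neuron and glia, erythrocyte and cell cycle markers also overlapped between SB431542 and DMSO in both tail types. Epidermal markers did not in cut tails, where they summed to 13060 to 16129 CPM with SB431542 against 10117 to 12808 CPM with DMSO. With SB431542 over both tail types, 4.84% of all genes tested were called higher and 2.33% lower. Of the markers, 1 of 8 tested epidermal, 1 of 13 muscle, 2 of 5 neutrophil, 1 of 12 cell cycle, 0 of 10 neuron and glia and 0 of 4 erythrocyte markers were called higher. Of 4 macrophage markers 1 was higher and 1 lower. Although 2 neutrophil markers were called higher, the mean neutrophil sum was lower with SB431542, with overlapping libraries. It was 353 CPM against 424 CPM with DMSO in cut tails, and 327 CPM against 401 CPM in uncut tails. The part of these markers in the clock gene values was not tested. In tissue pools, fewer cells of a type and less RNA per cell cannot be told apart.

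The second question was whether excision altered the clock genes. With cut set against uncut tails over both treatments, again an average added after the data had been seen, 0 of 32 clock genes were called higher and 3 lower, where 6.84% of all genes were called higher and 5.13% lower. The 3 were the Rev-erb receptors NR1D1 and nr1d2a and the PAR bZIP factor dbpb. At an unadjusted p under 0.05 there were 8 clock genes in either direction, or 25.0%, close to the 25.6% of all genes, and DESeq2 and limma-voom also called 0 higher. The median log2 fold change was -0.09 over the clock genes and 0.015 over all genes.

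NR1D1, a Rev-erb repressor, stood at 1.81, 1.90 and 2.08 CPM in cut SB431542 tails, against 4.00, 4.73 and 9.56 CPM in uncut SB431542 tails. With DMSO it stood at 2.84, 1.42 and 2.01 CPM in cut tails, against 3.32, 5.13 and 4.42 CPM in uncut tails. Each of the 6 cut libraries was below each of the 6 uncut libraries, with 15 to 95 counts a library. The log2 fold change was -1.35 ± 0.29, a 2.55-fold lower level, with an adjusted p of 0.00410.

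nr1d2a, the most abundant Rev-erb gene of these tails, stood at 56.8, 51.1 and 69.5 CPM in cut SB431542 tails, against 73.2, 68.0 and 93.9 CPM in uncut SB431542 tails. With DMSO it stood at 49.2, 36.2 and 41.4 CPM in cut tails, against 80.8, 58.7 and 63.1 CPM in uncut tails. After TMM scaling, on which small separations rest in part, the libraries were apart under DMSO and overlapped under SB431542 through cut replicate 4. The log2 fold change was -0.54 ± 0.14 (1.46-fold lower, adjusted p 0.0139). The remaining Rev-erb gene tested, NR1D2, stood at 22.0 CPM in uncut SB431542 replicate 4 and at no more than 5.10 CPM in any other library, and was not called (log2 -1.02 ± 0.47, adjusted p 0.194).

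dbpb, a PAR bZIP factor under clock control, stood at 4.95, 4.27 and 4.38 CPM in cut SB431542 tails, against 7.65, 10.8 and 15.6 CPM in uncut SB431542 tails. With DMSO it stood at 6.24, 8.45 and 10.7 CPM in cut tails, against 10.2, 12.1 and 19.1 CPM in uncut tails. The libraries were apart under SB431542 and overlapped under DMSO through cut replicate 4. The log2 fold change was -1.04 ± 0.22 (2.06-fold lower, adjusted p 0.00426).

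hlfa, the most abundant PAR bZIP gene of these tails, stood at 65.0, 42.0 and 62.4 CPM in cut SB431542 tails, against 72.2, 80.4 and 68.1 CPM in uncut SB431542 tails. With DMSO it stood at 58.6, 50.2 and 60.7 CPM in cut tails, against 84.4, 69.1 and 70.9 CPM in uncut tails. After TMM scaling all 6 cut libraries were below all 6 uncut libraries, a small separation that rests in part on that scaling. The log2 fold change of -0.39 ± 0.13 missed the threshold (adjusted p 0.0575), as did that of dbpa at -0.71 ± 0.24 (adjusted p 0.0594). hlfa was called lower with upper-quartile scaling in edgeR (adjusted p 0.0489) and by DESeq2 (adjusted p 0.0322). In 9 of the 11 alternatives that kept all libraries it was not called. tefa, which was higher with SB431542, had a log2 fold change of -0.04 ± 0.23 with excision. In 2 clock genes, NR1D1 and hlfa, cut libraries were all below uncut libraries over both treatments, against 2.05% of all genes.

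**Figure D4:**
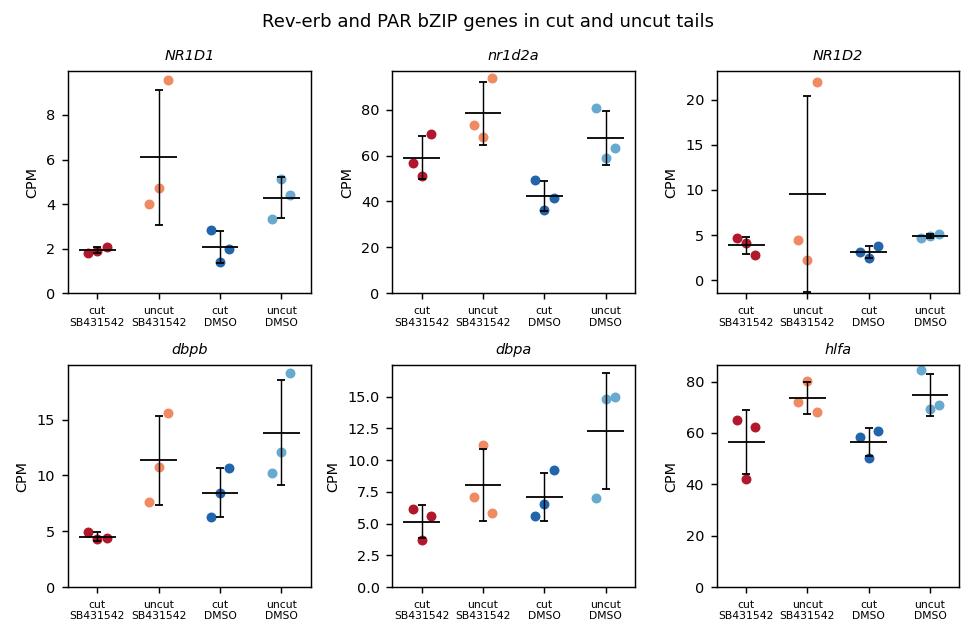
Levels in CPM (y axes, linear) of the 3 Rev-erb and 3 PAR bZIP genes by group (x axes); points are libraries, horizontal lines group means and bars SD (n = 3), which reach below 0 for NR1D2 in uncut SB431542 tails. Cut libraries of NR1D1 and hlfa lie below all uncut libraries, and NR1D2 has 1 library at 22.0 CPM.

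Within treatments the calls were fewer. Under DMSO, 0 clock genes were called higher and 1 lower, nr1d2a at a log2 fold change of -0.67 ± 0.20 (adjusted p 0.0494), where 3.65% of all genes were called higher and 1.93% lower. Under SB431542, 0 were called higher and 2 lower, NR1D1 at -1.69 ± 0.40 (adjusted p 0.0340) and dbpb at -1.34 ± 0.33 (adjusted p 0.0430), where 1.49% of all genes were called higher and 0.572% lower. At an unadjusted p under 0.05 each treatment had 5 clock genes, where 20.4% of all genes were under it with DMSO and 16.0% with SB431542, and under DMSO both DESeq2 and limma-voom called 0 higher. CLOCK ENSDARG00000003631, an activator, stood at 4.35, 6.55 and 4.58 CPM in cut SB431542 tails, against 2.94, 1.63 and 0.805 CPM in uncut SB431542 tails. The groups did not overlap, and its log2 fold change of 1.56 ± 0.42 was not called by edgeR (adjusted p 0.0610), while DESeq2 called it, as the 1 clock gene higher, and limma-voom called 0. It was named after its values were seen.

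Over both treatments, NR1D1 and dbpb were called in all 12 fits that left out 1 library, with highest adjusted p values of 0.0159 and 0.0227, and nr1d2a was lost without cut SB431542 replicate 3 (0.0503) or cut DMSO replicate 3 (0.0510). Without uncut SB431542 replicate 4 the log2 fold changes were -1.09 for NR1D1, -0.88 for dbpb and -0.47 for nr1d2a, all called, and hlfa was then called as well (-0.42, adjusted p 0.0279). The calls within a treatment were less stable. nr1d2a under DMSO was lost in 9 of the 12 fits, among them each that left out a DMSO library (adjusted p 0.0515 to 0.221). Under SB431542, NR1D1 was lost without any cut SB431542 replicate or without uncut replicate 4 (0.0919 to 0.153), and dbpb in 8 of the 12 fits (0.0509 to 0.177).

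Cell type markers moved with excision as well. Summed macrophage markers were 60.1 to 104 CPM in cut SB431542 tails against 21.9 to 24.3 CPM in uncut SB431542 tails, and 75.9 to 131 CPM in cut DMSO tails against 16.1 to 28.3 CPM in uncut DMSO tails. Over both treatments, 6.84% of all genes tested were called higher and 5.13% lower. Of the markers, 4 of 4 macrophage, 4 of 5 neutrophil and 9 of 12 cell cycle markers were called higher. The remaining neutrophil marker had a negative log2 fold change, and the summed neutrophil markers overlapped between cut and uncut tails. With SB431542 they were 284 to 453 CPM in cut against 235 to 389 CPM in uncut tails. With DMSO they were 374 to 475 CPM in cut against 342 to 483 CPM in uncut tails. Lower were 9 of 13 muscle, 5 of 8 epidermal and 3 of 10 neuron and glia markers, while 0 of 4 erythrocyte markers were called. Their part in the lower Rev-erb and dbpb levels was not tested. Of 21 tested clock-controlled outputs 1 was called higher and 1 lower, which is 9.52% of the list in either direction. CCNB1, the mitotic cyclin B1, was higher by 1.38 ± 0.23 (adjusted p 4.87e-04) and VEGFA ENSDARG00000034700, a vascular growth factor, lower at -0.96 ± 0.18 (adjusted p 0.00177). None of the 19 turnover genes or of the 3 opsins was called by edgeR, with 2 and 1 of them at an unadjusted p under 0.05, where 25.6% of all genes were under it.

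Whether excision changed the response to SB431542 was tested as an interaction. edgeR called 0 of the 32 clock genes and 0.0% of the 13978 genes, and DESeq2 and limma-voom also called 0 clock genes. At an unadjusted p under 0.05 there was 1 clock gene, against 5.05% of all genes: CLOCK ENSDARG00000003631, with a log2 interaction of 1.70 ± 0.57 (adjusted p 0.910). For tefa the interaction was -0.07 and for cry-dash -0.61 ± 0.45, and neither was detectable as a difference at this precision.

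Finally, 6 genes of textbook role were compared pairwise across the 12 libraries after group means were removed, which gave 15 pairs. They were BMAL1 ENSDARG00000035732, CLOCK ENSDARG00000003631, NR1D1, PER3, tefa and CRY1 ENSDARG00000045768. Where a symbol stood for 2 identifiers, the one of higher mean level was used. Pearson correlations reached an adjusted p under 0.05 in 0 pairs (3 pairs before adjustment), by an exact two-sided permutation of libraries within groups, Benjamini-Hochberg adjusted over the 15 pairs. By that permutation, CLOCK ENSDARG00000003631 and tefa had an r of 0.797 (raw p 0.0394, adjusted p 0.197). BMAL1 ENSDARG00000035732 and CRY1 ENSDARG00000045768 had an r of 0.649 (raw p 0.0185, adjusted p 0.139). The other pair was PER3 and tefa. The repressor PER3 and tefa had a Spearman rho of 0.797 (adjusted exact permutation p 0.0347, raw p 0.00231) and a Pearson r of 0.681 (adjusted p 0.139, raw p 0.0162), and r was 0.665 without the 2 libraries farthest from the median of PER3. Counts of PER3, like those of cry5, were fractional in all 12 libraries, so reads may be shared with another gene. The same holds for CLOCK ENSDARG00000003631, with fractional counts in 7 libraries, and for BMAL1 ENSDARG00000035732 and cry3a, with 4 each. Of the 38 clock genes, 8 had a fractional count in at least 1 library. BMAL1 ENSDARG00000035732 and NR1D1, an activator and its repressor, had an r of -0.487 (exact permutation p 0.127, adjusted p 0.318) and a rho of -0.413 (p 0.182, adjusted p 0.35), with r at -0.344 without the 2 libraries farthest from the median.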

How the data were processed

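The authors deposited estimated counts per gene, not normalized, of Lexogen QuantSeq 3' FWD libraries, and a normalized signal table. Per the submitters' processing notes the build was GRCz11, with the aligner and counter not given in the sources used here. Between 23.1% and 26.7% of the nonzero values per library were not whole. Values of the deposited signal table, multiplied by 1 factor per library, gave whole reads (within 1e-04) for 100% of values, all equal to the rounded counts.

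Rounded counts were tested with edgeR 4.0.16 (R 4.3.3; TMM, filterByExpr, robust quasi-likelihood F test, 4 group means, two-sided, Benjamini-Hochberg over 13978 genes). Every adjusted p of a gene in the text is from that test unless another tool is named. The comparisons were SB431542 against DMSO, cut against uncut tails and their interaction, and 2 averages added after the data had been seen. Symbols matched 77.99% of identifiers. The clock genes and lists were chosen with earlier results of these data known. Values were given in every library for clock genes called in any comparison and for the most abundant tested gene per role, and up to 4 genes per related list were named by smallest adjusted p. Alternatives were DESeq2 1.42.0, limma-voom and limma-trend (limma 3.58.1), upper-quartile and RLE scaling, no or a stricter count filter, a replicate block, fits of only the groups compared, leave-outs of each library, and, added later, legacy dispersions and recovered reads. The recovered reads equal the rounded counts, so their fit repeats the main fit and is no separate check. No sequences or coordinates were used here. The result of 1 gene of the related lists is not reported here.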

Additional observations from a re-analysis of the deposited data

How the results depend on the processing

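No log2 fold change of a called clock gene reversed under any alternative. Median log2 fold changes over all genes stayed within 0.04 of 0 under TMM, RLE and upper-quartile scaling. With SB431542 over both tail types, between 9 and 10 clock genes were called higher under every alternative that kept all libraries, and with 1 library left out 4 to 10 were called higher (4 without cut DMSO replicate 4, 5 without cut SB431542 replicate 3 or uncut DMSO replicate 4) and 0 to 1 lower. With excision over both treatments, DESeq2 called 5 clock genes lower in place of 3, hlfa among them, and upper-quartile scaling also called hlfa. Leave-outs gave 2 to 5 lower and 0 to 1 higher. The calls within a tail type or treatment depended on the setting. With SB431542 in cut tails, where edgeR called 0 higher, DESeq2 called 5, no count filter 3 and a fit of only the groups compared 7, with 0 to 6 in leave-outs. With SB431542 in uncut tails, where edgeR called 1 higher, RLE and upper-quartile scaling, limma-voom, the stricter filter, limma-trend with either pseudocount (1 or 0.1) and a fit of only the groups compared called 0, while DESeq2 called 5 and no filter 2, with 0 to 3 in leave-outs. With excision under DMSO, limma-voom, no count filter and legacy dispersions called 0 lower in place of 1, with 0 to 1 in leave-outs. With excision under SB431542, limma-voom and a fit of only the groups compared called 0 lower in place of 2 and limma-trend 1 with either pseudocount, DESeq2 and no filter called 1 higher in place of 0, and leave-outs gave 0 to 2 lower and 0 to 1 higher. Pairs of correlated genes numbered 0 to 1 in leave-outs. The share of all genes called is not given for each single setting. The clock gene counts of a setting are therefore not to be set against the edgeR shares. The cause of the changes between settings was not tested.

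Same-numbered libraries correlated above 0.1 in 4 of 13 pairs (-0.0498 to 0.343), and 5 of 12 libraries correlated best with their own number. No level expected without pairing was computed, so these values do not settle whether libraries of 1 number belong together. With the replicate block, SB431542 over both tail types again called 10 clock genes, with nr1d2a gained (adjusted p 0.0312) and csnk1da lost (0.0664), and SB431542 in uncut tails again called 1, tefa (0.0440), with cry-dash at 0.0501. Counts over all genes also moved: 1003 genes with SB431542 over both tail types became 638 to 1398 under other settings and 317 to 1664 in leave-outs, 40 in cut tails became 9 to 537 and 9 to 473, 11 in uncut tails became 1 to 331 and 0 to 666, 780 with excision under DMSO became 615 to 1468 and 321 to 1432, and 288 under SB431542 became 127 to 553 and 119 to 399. The edgeR interaction called 0 genes and other settings at most 2. Genes near 1 CPM, such as CRY1 ENSDARG00000011583 with 1 to 22 counts a library, were too shallow for small differences. A fit of only the groups compared was not run for the interaction or the averaged comparisons, which use all 4 groups.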
